A study of Mus musculus with 18 samples.

Results

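The 8 germline genes described here are Dazl, Ddx4, Mael, Tdrd1, Tdrd6, Mov10l1, Asz1 and Stk31, chosen by name from the 21827 protein-coding genes of the GENCODE M21 mouse annotation. For each gene, every CpG of the gene and of 2000 bp on either side was used if it had at least 1 read in all 18 libraries, and methylated and total reads were summed per library. The promoter was the stretch within 500 bp of the start of the principal transcript, and the body was the rest of the annotated gene. All 8 genes had enough covered CpGs (at least 3) to be tested at the promoter and in the body, as did 16458 promoters and 19505 bodies in all. DNA methylation was measured by a form of reduced representation bisulfite sequencing (eRRBS), in which restriction fragments rich in CpGs are treated with bisulfite so that unmethylated cytosines are read as thymine. The cells were mouse embryonic stem cells (ES cells) in which the gene for DNMT1, the enzyme that copies methylation onto newly made DNA, was knocked out and DNMT1 was put back from the stably introduced vector pPyCAGIP. The 18 libraries form 6 groups of 3, and all groups share the knockout and the puromycin selection: cells given wild-type DNMT1 (WT), DNMT1 with 1 tryptophan changed to alanine (W796A or W465A), with 2 changed (W464A/W465A or W465A/W796A), or with 3 changed (W464A/W465A/W796A). The labels call the libraries of a group biological replicates, without saying whether each came from a separate stable line, so the p-values measure the spread between these libraries. Empty-vector cells are not analysed here, and no RNA was measured.

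PIWI-interacting RNAs (piRNAs) are small RNAs that guide PIWI proteins to transposon transcripts in the germ line, and many of the proteins that make or use them gather in germ granules beside mitochondria or the nucleus. Most of these genes are silent outside germ cells, and many have CpG-rich promoters that become methylated when the embryo implants, which makes them a textbook case of genes whose silence in other tissues depends on DNA methylation. Mov10l1 is an RNA helicase needed for the processing of piRNA precursors, Ddx4 is the DEAD-box helicase known as mouse vasa homologue, Tdrd1 and Tdrd6 are multi-Tudor scaffolds that bind methylated arginines of PIWI proteins, Asz1 is a granule scaffold at mitochondria, Mael is a granule protein needed for transposon silencing, Stk31 is a testis protein with a Tudor and a kinase-like domain, and Dazl is an RNA-binding regulator of translation in germ cells.

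The promoters of 4 members are shown as examples that do not span the full range. Dazl and Asz1 were highly methylated up to the start in WT, and Mael and Tdrd1 were partly methylated there. In the 250 bases before the start, Stk31 and Ddx4 had lower WT medians (11.1% and 15.4%), and none of the 19 CpGs of Mov10l1 was covered. Each line is the 250 bases before the RefSeq start, written 5′ to 3′ on the gene's own strand from RefSeq's GRCm38.p6 assembly, with every CpG in capitals. The windows are chr17:50293621-50293870 on the minus strand for Dazl, chr6:18109062-18109311 on the minus strand for Asz1, chr1:166238745-166238994 on the minus strand for Mael and chr19:56825959-56826208 on the plus strand for Tdrd1.
Dazl: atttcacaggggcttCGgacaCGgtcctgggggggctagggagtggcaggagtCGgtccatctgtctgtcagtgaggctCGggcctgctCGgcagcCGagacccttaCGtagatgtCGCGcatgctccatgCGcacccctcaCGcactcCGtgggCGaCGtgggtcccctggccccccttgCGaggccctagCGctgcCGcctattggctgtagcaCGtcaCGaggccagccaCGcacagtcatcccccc
Asz1: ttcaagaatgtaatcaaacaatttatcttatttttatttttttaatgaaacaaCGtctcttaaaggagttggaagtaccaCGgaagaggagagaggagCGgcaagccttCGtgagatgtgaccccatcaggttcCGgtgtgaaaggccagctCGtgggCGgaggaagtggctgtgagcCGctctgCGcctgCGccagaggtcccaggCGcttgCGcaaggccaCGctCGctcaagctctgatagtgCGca
Mael: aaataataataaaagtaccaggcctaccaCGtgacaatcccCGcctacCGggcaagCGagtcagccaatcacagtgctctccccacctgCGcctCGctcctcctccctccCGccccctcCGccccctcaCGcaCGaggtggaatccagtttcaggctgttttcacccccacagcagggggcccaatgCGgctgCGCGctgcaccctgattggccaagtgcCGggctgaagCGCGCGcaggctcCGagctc
Tdrd1: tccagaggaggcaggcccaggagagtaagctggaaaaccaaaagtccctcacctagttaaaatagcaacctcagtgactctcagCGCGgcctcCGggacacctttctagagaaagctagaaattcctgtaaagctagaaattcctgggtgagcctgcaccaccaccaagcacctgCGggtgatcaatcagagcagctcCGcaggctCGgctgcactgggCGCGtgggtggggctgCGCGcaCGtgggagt
In the Dazl stretch all 20 CpGs were covered, and their median methylation level, with the 3 libraries of a group pooled, was 79.3% in WT and 24.9% in W465A. The Asz1 stretch holds 15 CpGs, of which 10 were covered, with a median of 82.9% in WT and 28.4% in W465A. Only 4 of the 18 CpGs of the Mael stretch and 7 of the 11 of the Tdrd1 stretch were covered, with WT medians of 20% and 30.8%.
For 7 members (all but Tdrd6) the RefSeq promoter table held an entry, which gives 250 bases before and 50 after the start. The E-box CACGTG, its own reverse complement, was found in 5 of these 7 promoters (Ddx4, Mael, Tdrd1, Mov10l1 and Stk31) and in 7.15% of all 32851 promoters of the table. The motif TCCCGC, searched on both strands, was found in 2 of the 7 and in 19.98% of the table. The CpG inside the E-box was covered only in Tdrd1 and Stk31, where the pooled reads of a group were as few as 6 and 9.

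Coverage differed widely between the members and limits what can be said of each. At Dazl, on chromosome 17 (50279395 to 50293636, minus strand, GRCm38), 53 of the 70 CpGs listed in the promoter were covered, by 807 to 2473 reads per library. Tdrd6, also on chromosome 17 (43615335 to 43630299, minus strand), had 50 of 84, and Stk31 on chromosome 6 (49395604 to 49469501, plus strand) had 52 of 59. Tdrd1 on chromosome 19 (56826209 to 56870012, plus strand) had 40 of 54, Mael on chromosome 1 (166201201 to 166238747, minus strand) had 29 of 61, and Asz1 on chromosome 6 (18050964 to 18109061, minus strand) had 25 of 38. Only 12 of 78 promoter CpGs were covered at Ddx4 on chromosome 13 (112598333 to 112652475, minus strand). Mov10l1 on chromosome 15 (88982909 to 89055152, plus strand) had 3 of 48, with 8 to 38 reads per library, so its promoter values are the least certain of the 8. No other annotated gene overlapped any of the 8 promoter windows.

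Across the series, the libraries held 59776439 to 138978763 reads over CpGs, and the level over the 6143659 CpGs covered in every library was 53.0% ± 7.13 (SD, n = 3) in WT, 52.3% ± 10.01 in W796A, 38.0% ± 2.82 in W465A/W796A, 22.2% ± 4.69 in W465A, 16.95% ± 2.67 in W464A/W465A and 16.6% ± 2.08 in W464A/W465A/W796A. Promoters of 6 stem cell genes (Pou5f1, Nanog, Sox2, Esrrb, Klf4 and Tdgf1) were at 0.209% to 4.32% in WT, but so were 2 of 3 somatic genes (Thy1 and Twist2, both at 2.39%; Col1a1 was at 56.3%), so these levels do not identify the cell type. The first WT and W796A libraries stood apart with low levels over all CpGs, 44.8% and 40.7% against 57.1% to 58.3% in the other libraries of these groups, and the first W465A library was high (27.6% against 19.4% and 19.6%). The members followed the same order: the first WT library was the lowest of its group at 7 of the 8 promoters, as was that of W796A, and the first W465A library was the highest of its group at all 8.

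Of the 8 promoters, 7 were partly or highly methylated in WT, whereas the median over all 16458 promoters was 1.05%. Dazl had the highest level at 75.5% ± 11.7 (SD, n = 3), followed by Asz1 at 72.5% ± 7.22 and Mov10l1 at 67.1% ± 8.599, and the libraries of these 3 genes overlapped. A middle tier of Tdrd1 at 37.8% ± 10.98, Mael at 35.6% ± 3.97, Stk31 at 32.1% ± 11.7 and Ddx4 at 22.2% ± 13.1 lay below every library of those 3, again with overlapping libraries. Tdrd6, at 7.03% ± 3.42, was the lowest of the 8, and its libraries overlapped only those of Ddx4. Levels of this size were rare for CpG-rich promoters: among the 12178 promoters with at least 30 listed and 10 covered CpGs, 371 (3.05%) reached 20% in WT, and 6 members (all but Tdrd6 and the sparsely covered Mov10l1) were among them. The members were chosen with earlier results of these data known, so this comparison is a description and not a test. All these levels are averages over the alleles of many cells, in which fewer methylated cells and less methylation per cell cannot be told apart.

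**Figure D1:**
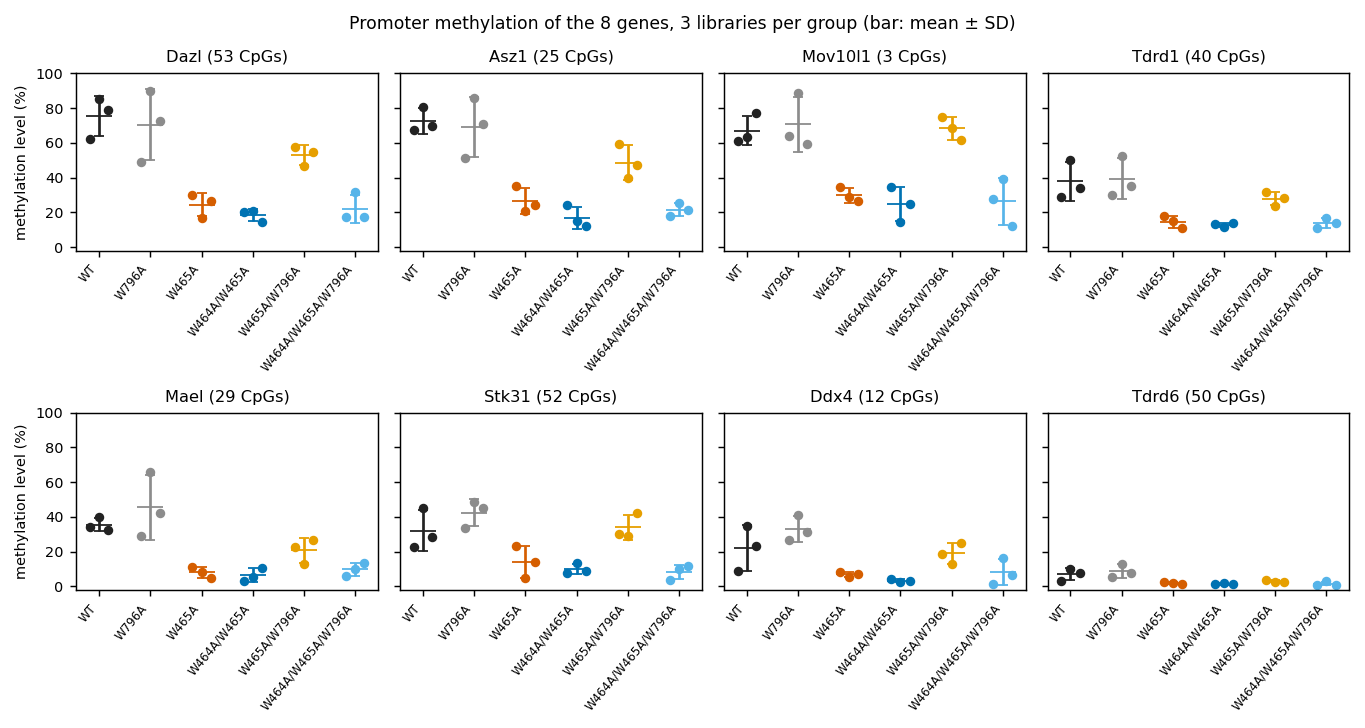
Promoter methylation level (percent of reads methylated, summed over the covered CpGs within 500 bp of the start) of the 8 genes in each of the 18 libraries, by DNMT1 group; points are libraries and bars are group means ± SD. In WT the levels ran from 7.03% at Tdrd6 to 75.5% at Dazl, and the W465A, W464A/W465A and W464A/W465A/W796A groups had lower means than WT at every gene.

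Dazl and Tdrd6 had opposite profiles along the gene in WT. Dazl was methylated before the start, at 79.05% ± 12.8 over the 20 CpGs in the 250 bp upstream, and for 500 bp after it, at 68.05% ± 8.97 from 250 to 500 bp. The level was then 11.4% ± 7.76 from 500 to 750 bp and 3.56% ± 3.87 from 750 to 1000 bp, so that the methylated stretch of Dazl ended inside the gene. Tdrd6 was at 13.99% ± 4.69 in the 250 bp upstream and at 4.34% to 4.98% from the start to 750 bp, and it was higher farther out on both sides, at 67.5% ± 27.1 from 500 to 250 bp upstream and 54.8% ± 20.6 from 1000 to 1250 bp downstream. Stk31 and Tdrd1 were lower next to the start than farther away. For Stk31 the level was 20.7% ± 6.74 in the 250 bp before the start and 58.5% ± 18.8 from 250 to 500 bp after it, and for Tdrd1 it was 23.7% ± 12.4 and 46.9% ± 22.7 in the same 2 stretches. Asz1 was high on both sides of its start, at 70.2% ± 9.67 before it and 75.5% ± 9.74 in the 250 bp after it.

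**Figure D2:**
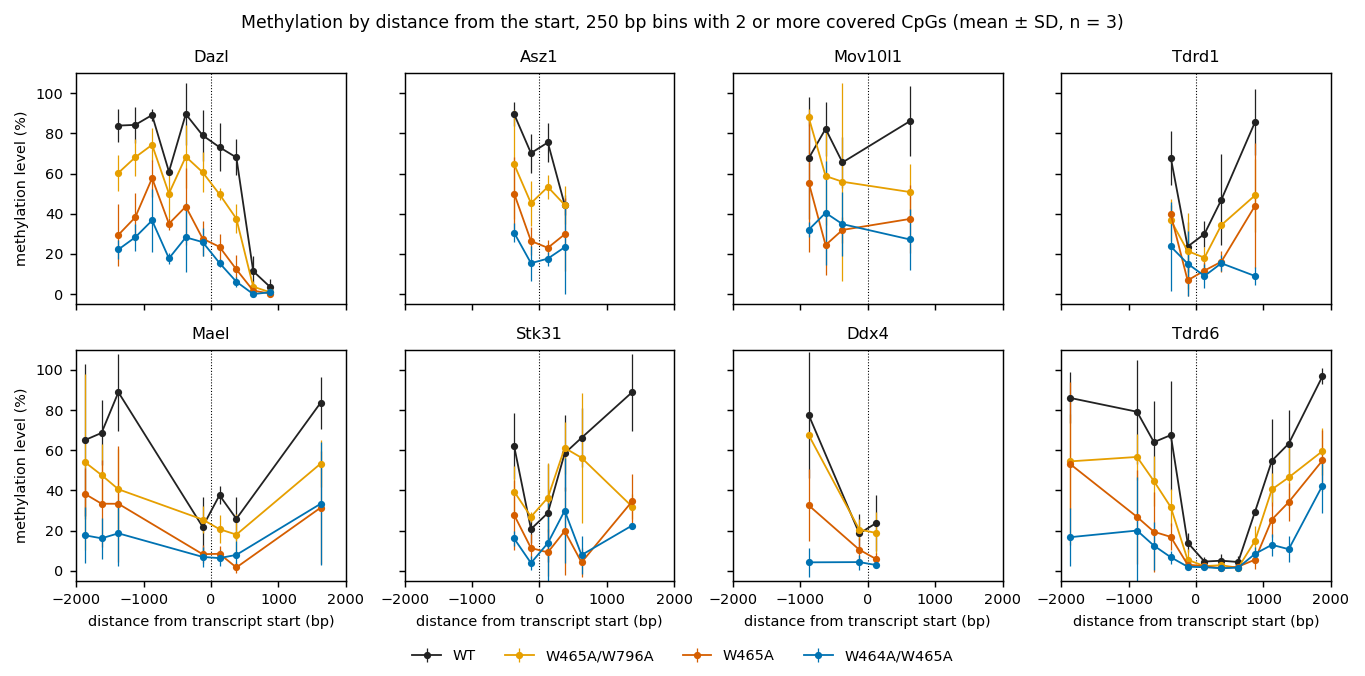
Methylation level by distance from the transcript start (bp, in steps of 250 bp along the direction of transcription) for each gene in WT, W465A/W796A, W465A and W464A/W465A, for steps with 2 or more covered CpGs; points are means of 3 libraries and bars their SD. Dazl in WT dropped from 68.05% to 11.4% at 500 bp past its start, and Tdrd6 was at 4.34% to 4.98% from its start to 750 bp.

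W465A, W464A/W465A and W464A/W465A/W796A were each compared with WT to ask how much methylation these forms of DNMT1 keep at the promoters. Of the 8 promoters, 7 were lower in W465A (all but Tdrd6), and the same 7 were lower in W464A/W465A and in W464A/W465A/W796A, where lower means that group means were 10 or more percentage points apart and that the quasi-binomial model over all promoters gave an adjusted p under 0.05. Of all promoters tested, 22.3% were lower in W465A, 23.8% in W464A/W465A and 23.9% in W464A/W465A/W796A. Among the 1049 promoters with at least 10 covered CpGs and 20% or more methylation in WT, 97.0%, 98.7% and 98.95% were lower in the 3 mutants, and all 6 members of that class were, so the calls do not set the members apart from promoters of like WT level. The decreases also went with the level over all CpGs. When each library's level was entered as an offset, only Dazl was called in W465A and in W464A/W465A/W796A, and Dazl and Asz1 in W464A/W465A. That level itself differs between the groups, so the offset tests only for change beyond it and does not test the decrease itself. In every alternative setting, the offset among them, at least 2.90%, 4.89% and 4.42% of all promoters were called in W465A, W464A/W465A and W464A/W465A/W796A. The exact share with the offset is not given, so these calls do not set the members apart.

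Dazl, the RNA-binding regulator, was at 62.5, 85.04 and 78.9% in the 3 WT libraries, at 49, 89.6 and 72.8% in W796A and at 57.5, 46.6 and 54.8% in W465A/W796A. It was at 29.8, 16.9 and 26.5% in W465A, at 20.3, 21.04 and 14.6% in W464A/W465A and at 17.04, 31.5 and 17.3% in W464A/W465A/W796A. All libraries of these last 3 groups lay below every library of the first 3. Against WT, Dazl fell by 51.1 points (SE 7.78, adjusted p = 0.000302) in W465A, by 56.8 points (SE 7.04, adjusted p = 8.88e-05) in W464A/W465A and by 53.5 points (SE 8.26, adjusted p = 7.55e-05) in W464A/W465A/W796A. At each of its 53 covered promoter CpGs the pooled W465A level was below that of WT.

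Asz1, the mitochondrial granule scaffold, was at 67.1, 80.7 and 69.8% in WT, at 51.3, 85.6 and 70.9% in W796A and at 59.1, 39.6 and 47.3% in W465A/W796A. The other groups were at 34.9, 20.7 and 24.4% (W465A), 24.04, 14.8 and 12.05% (W464A/W465A) and 17.9, 25.2 and 21.6% (W464A/W465A/W796A). Each of these 9 libraries lay below all WT, W796A and W465A/W796A libraries. The promoter fell by 45.8 points (SE 5.96, adjusted p = 0.000538) in W465A and by 55.6 points (SE 5.52, adjusted p = 8.05e-05) in W464A/W465A.

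Mov10l1, the helicase of precursor processing, was at 61.1, 63.2 and 76.9% in WT and at 75, 68.4 and 61.5% in W465A/W796A, groups that overlapped. It was at 34.8, 28.6 and 26.3% in W465A, at 34.5, 14.7 and 25% in W464A/W465A and at 27.8, 39.1 and 12% in W464A/W465A/W796A, all below WT. The difference from WT was -37.2 points in W465A (adjusted p = 0.0102) on 3 CpGs. That call was lost with edgeR's quasi-likelihood test (adjusted p = 0.0543) and without the third W465A library (adjusted p = 0.0545).

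Ddx4, the vasa-type helicase, varied widely among the WT libraries, at 8.72, 34.9 and 23.1%, and was at 8.47, 5.64 and 7.24% in W465A, so that the lowest WT library was barely above the highest W465A library. Its difference of -15.1 points in W465A (adjusted p = 0.0113) rested on single libraries: without the second WT library it was -8.78 points (adjusted p = 0.293), and without the second W465A library the adjusted p was 0.0672. With limma the adjusted p was 0.110 and with edgeR 0.0512. In W464A/W465A, at 4.17, 2.797 and 3.03%, all libraries lay below WT, and the difference was -18.9 points (adjusted p = 0.00698; 0.108 without the second WT library). The W464A/W465A/W796A libraries, at 1.45, 16.2 and 6.56%, overlapped WT, and that call (adjusted p = 0.0185) was lost without the second WT library (adjusted p = 0.405) or the first W464A/W465A/W796A library (adjusted p = 0.119).

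The Tudor scaffolds differed in their WT level. Tdrd1 was at 28.96, 50.1 and 34.3% in WT, at 17.6, 15.2 and 10.8% in W465A, at 13.1, 11.8 and 13.6% in W464A/W465A and at 11.1, 16.9 and 13.8% in W464A/W465A/W796A, with every mutant library of these groups below WT. It fell by 23.2 points (SE 6.65, adjusted p = 0.000693) in W465A. Tdrd6 was at 3.37, 10.1 and 7.56% in WT and at 2.29, 2.26 and 1.12% in W465A, again without overlap. Its difference of -5.14 points (adjusted p = 0.001798) passed the p threshold but not the minimum of 10 points, which a promoter at 7.03% cannot reach; relative to its WT level, Tdrd6 kept 26.9% in W465A and Tdrd1 38.5%.

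Mael and Stk31 completed the middle tier. The granule gene Mael was at 34.5, 40.04 and 32.3% in WT, the narrowest spread of that tier, and at 11.1, 8.26 and 4.88% in W465A and 3.13, 5.45 and 10.9% in W464A/W465A. It fell by 27.5 points (SE 2.92, adjusted p = 0.00205) in W465A, and its libraries did not overlap. Stk31 was at 22.5, 45.2 and 28.5% in WT and at 23.3, 4.899 and 13.8% in W465A, and these 2 groups overlapped, as at no other member. Its difference in W465A was -18.1 points (adjusted p = 0.0177), and the call was lost without the second WT library (-11.5 points, adjusted p = 0.242), without the second or the third W465A library (adjusted p = 0.0771 and 0.0543), with limma (0.0784) and with 250 bp on either side of the start (0.111). In W464A/W465A, at 7.89, 13.6 and 8.65%, and in W464A/W465A/W796A, at 3.49, 9.81 and 11.6%, all Stk31 libraries lay below WT.

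The level left in each mutant was also taken as a percentage of the WT mean. Over the 8 members it was 22.7% to 44.6% in W465A with a median of 34.6%, 15.0% to 36.9% in W464A/W465A with a median of 24.1%, and 23.2% to 39.2% in W464A/W465A/W796A with a median of 29.4%. The medians over the 1049 methylated promoters were 33.0%, 23.3% and 25.5%. Adding W464A to W465A gave differences of -0.380 to -9.72 points, downward at all 8 members, and no member passed the test (adjusted p from 0.913 to 0.984), nor did any promoter (0% called, 880 of 16458 at an unadjusted p under 0.05).

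**Figure D3:**
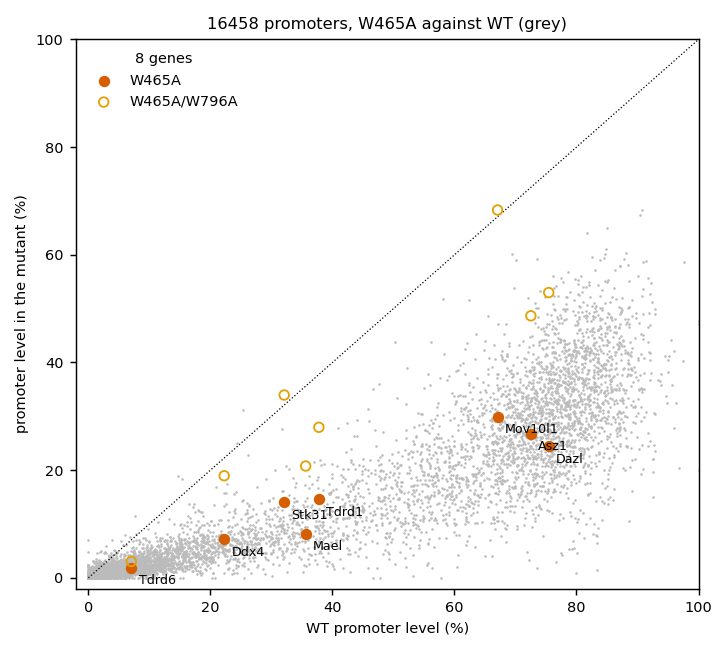
Promoter level in WT (percent, x axis) against that in a mutant (percent, y axis) for all 16458 promoters in W465A (grey dots) and for the 8 members in W465A (filled, named) and in W465A/W796A (open). In W465A the members lay within the cloud of promoters of like WT level, all below the dotted line of equal levels.

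In W796A alone, the libraries of all 8 promoters overlapped those of WT. Differences from WT ran from -4.996 points at Dazl to 10.7 points at Ddx4, and no member passed the test (adjusted p from 0.524 to 1), beside 0.231% of all promoters called higher. The mean of the 7 members with at least 10 covered CpGs was 44.1% ± 12.3 (SD, n = 3) in W796A and 40.4% ± 8.53 in WT. It was lower in W465A/W796A at 29.5% ± 4.80, and lower still in W465A at 13.8% ± 3.98, W464A/W465A/W796A at 12.2% ± 3.89 and W464A/W465A at 9.97% ± 0.718. In this order W796A and WT overlapped, the W465A/W796A libraries (23.9% to 32.5%) reached past the lowest W796A library (32.1%) and ended level with the lowest WT library (32.5%), and the last 3 groups overlapped each other and no other group.

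W796A together with W465A was compared with W465A alone. All 8 promoters had a higher mean in W465A/W796A than in W465A, by 1.15 points at Tdrd6 to 38.4 points at Mov10l1, and the libraries of the groups did not overlap at any of them. None passed the test across all promoters (adjusted p from 0.0799 at Mov10l1 to 0.575 at Tdrd6; 7 members had an unadjusted p under 0.05), in which 0.529% of all promoters were called higher and 2848 of 16458 had an unadjusted p under 0.05. In a model with the replicate number as a block, no member was called either. The median difference over the members was 16.7 points. Over the 1049 methylated promoters it was 17.4 points, with 3.24% called higher, so the rise does not set the members apart. The share of all promoters without overlap between these groups was not counted. Without the first W796A library, which enters only through the shared estimate of spread, Dazl, Mov10l1 and Asz1 were called (adjusted p = 0.0201, 0.0408 and 0.0486), and without the second W796A library Dazl and Mov10l1 were (both 0.0311). Over the fits with 1 library left out, 0% to 3.97% of all promoters were called, so calls moved beyond the members too.

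The size of the difference varied among the members. Mov10l1 was at 68.3% ± 6.73 in W465A/W796A against 29.9% ± 4.38 in W465A, Dazl at 52.98% ± 5.64 against 24.4% ± 6.74 and Asz1 at 48.7% ± 9.85 against 26.7% ± 7.38. Stk31 was at 30.2, 29.2 and 42.4% in W465A/W796A, a mean of 33.9% ± 7.34 against 14% ± 9.22 in W465A. Ddx4 was at 18.9, 12.7 and 25.2%, Mael at 22.9, 12.95 and 26.5%, Tdrd1 at 31.5, 23.8 and 28.5% and Tdrd6 at 3.66, 2.64 and 2.82%. Single CpGs mostly had the same direction: the pooled W465A/W796A level was above that of W465A at all 53 covered CpGs of Dazl, all 29 of Mael and all 12 of Ddx4, at 27 of the 30 of Stk31 and 22 of the 23 of Asz1 that had at least 10 pooled reads in every group, and at 15 of 19 in Tdrd1 and 30 of 48 in Tdrd6.

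In W465A/W796A the members stood at different shares of WT. Stk31 and Mov10l1 were at 106% and 102% of their WT means, Ddx4 at 85.2%, Tdrd1 at 74%, Dazl at 70.2%, Asz1 at 67.1%, Mael at 58.3% and Tdrd6 at 43.3%. The place of Mov10l1, on 3 CpGs, depended on which CpGs were used and how they were weighted: its difference from WT was 1.26 points, but -17.4 points with 1000 bp on either side, -13.4 points from the outermost annotated start and -9.12 points with each CpG counted once, none of which passed the test. That of Stk31 (1.85 points) ran from -0.796 to 6.52 points over the alternatives other than left-out libraries, and that of Tdrd1 (-9.82 points) was -23.8 points with at least 5 reads per CpG. The median over the 1049 methylated promoters was 68.3%, with quartiles of 55.8% and 76.6%. At Dazl, Asz1 and Mael all W465A/W796A libraries lay below all WT libraries, with mean differences of -22.5, -23.9 and -14.9 points, and at the other 5 they overlapped. No member passed the test (adjusted p from 0.0502 to 0.990; 5 had an unadjusted p under 0.05), beside 4.3% of all promoters called lower and 19.1% of the 1049 methylated ones. Dazl and Asz1 were called without the first WT library (adjusted p = 0.0197 and 0.0321), without the first W796A library (0.0131 and 0.0120) and without the second W796A library (0.0181 and 0.0154), and Mael was called without the last of these (0.0363). With 1 library left out, the share of all promoters called ran from 0% to 12.5%, so these gains were not confined to the members.

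**Figure D4:**
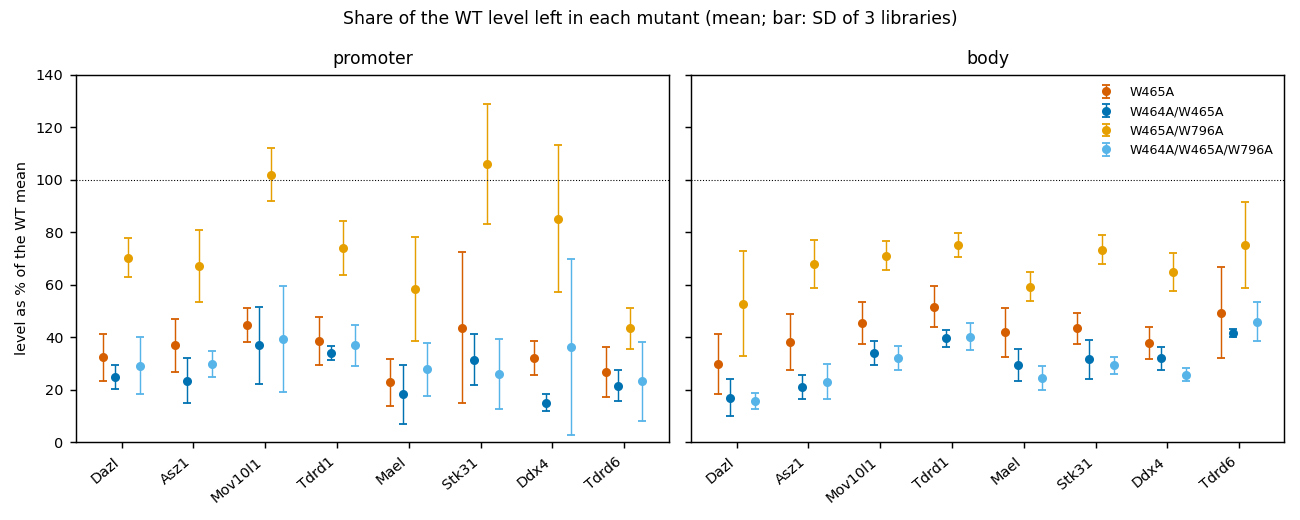
Level of each gene as a percentage of its WT mean (y axis) at the promoter (left) and in the body (right) in the 4 mutants that carry W465A; points are means and bars the SD of 3 libraries. At the promoter, Stk31 (106%) and Mov10l1 (102%) had the highest shares in W465A/W796A, that of Mov10l1 on 3 CpGs and lower with 1000 bp on either side, and Mael (58.3%) and Tdrd6 (43.3%) lay lowest.

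W464A/W465A/W796A was compared with W465A/W796A to ask what W464A added. In W464A/W465A/W796A, 4 members were lower than in W465A/W796A, beside 8.92% of all promoters and 46.4% of the 1049 methylated ones: Stk31 (-25.7 points, adjusted p = 0.0133), Mov10l1 (-42.02 points, adjusted p = 0.0176), Dazl (-31.01 points, adjusted p = 0.0237) and Asz1 (-27.1 points, adjusted p = 0.0367). Tdrd1 differed by -14.05 points without passing (adjusted p = 0.0602), although its libraries did not overlap. The 4 calls depended on single libraries: without the first W465A/W796A library, without the first W464A/W465A/W796A library or with the genome-wide offset, all 4 were lost, and without the third W464A/W465A/W796A library only Stk31 was called. The Asz1 call was also lost without the third W465A/W796A library or the second W464A/W465A/W796A library, and the Dazl call without the first of these. Other models also ended calls: Asz1 was lost with the replicate block (adjusted p = 0.0522), limma (0.109) and edgeR (0.0554), Dazl with limma (0.0850) and Mov10l1 with edgeR (0.0509) and from the outermost start (0.205), whereas Tdrd1 was called with the block (0.0426). Adding W796A to W464A/W465A gave differences of -1.76 points (Stk31) to 4.73 points (Ddx4), with overlapping libraries at all 8 and no call (0% of all promoters; 540 of 16458 at an unadjusted p under 0.05).

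A direct test asked whether W465A and W796A added up on the logit scale. On that scale (natural log odds of the pooled reads) the departure from the sum of the single effects was above 0 at all 8 members, from 0.43 at Tdrd6 to 1.38 at Mov10l1 and 1.64 at Dazl. Leaving out any 1 of the 12 libraries kept it above 0 at 7 members; without the second WT library it was level with 0 at Ddx4 (-0.00132, from 0.67) and at Tdrd6 (0.000361). In percentage points the departure was 35.0 at Mov10l1, 33.6 at Dazl and 25.2 at Asz1, but only 1.15 at Ddx4, 2.78 at Mael and -0.622 at Tdrd6. For these last 3 its sign turned when single libraries were left out. Its median was 10.7 points over the members and 14.8 points over the 1049 methylated promoters, so it does not set the members apart. The log odds departure was worked out for the members only, so no share of all promoters stands beside those counts. No member passed (adjusted p = 0.235 at Dazl, the smallest; 4 had an unadjusted p under 0.05), nor did more than 2 of all promoters (0.0122%), and Dazl and Asz1 were called without the second W796A library (adjusted p = 0.0238 and 0.0373). Up to 1.57% of all promoters were called in the fits with 1 library left out.

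Most of the gene bodies were highly methylated in WT. In WT cells, 6 of the 8 bodies were at 72.1% (Asz1) to 80.9% (Tdrd1), beside a median of 68.1% over all bodies; Tdrd6 was at 47.2% ± 6.01 and Dazl at 10.9% ± 6.502. Lower levels were called in 7 bodies (all but Dazl) in W465A, in W464A/W465A and in W464A/W465A/W796A, but so were 94.3%, 95.3% and 95.4% of all bodies, so the count is near the background. Ddx4 showed the largest W465A decrease, from 65.6, 80.2 and 81.1% in WT to 32.8, 23.8 and 29.2% in W465A, -47.05 points (adjusted p = 2.56e-05). Tdrd1 kept the highest body level of the 8 in every mutant that carries W465A, at 41.7% ± 6.27 in W465A and 32.6% ± 4.16 in W464A/W465A/W796A. In W796A alone no body passed the test (0% of all bodies, 312 of 19505 at an unadjusted p under 0.05).

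The mean of W465A/W796A lay between those of W465A and WT in all 8 bodies. Nearly every body did so: 99.2% of all bodies had a lower mean than in WT, and 0.877% a lower mean than in W465A. In the bodies of Dazl and Tdrd6 the W465A/W796A libraries overlapped those of both groups. W465A/W796A was lower than WT in 6 bodies (all but Dazl and Tdrd6), beside 67.5% of all bodies, and 6 (all but Dazl and Mael) were higher in it than in W465A, beside 73.3%. Stk31 differed most from W465A, at 61.98, 56.2 and 53.7% against 39.3, 31.1 and 31.4%, 23.4 points (adjusted p = 0.0126). Mael, at 46.5, 49.7 and 41.2% against 40.2, 30.8 and 26%, differed by 13.5 points without overlap and did not pass (adjusted p = 0.108). With the replicate number as a block, the Tdrd6 call was lost (adjusted p = 0.0635). Tdrd6 also missed the threshold with limma (0.0539), with edgeR (0.0576) and when any 1 of 13 libraries was left out. The other body calls depended on single libraries too: no member was called lower than WT without the second WT library (adjusted p = 0.174 for each) or without either the second or the third W465A/W796A library, and none was called higher than W465A without the third W465A library or the first W465A/W796A library. Without the second W465A library, Ddx4 and Stk31 were the members called higher. With each library's level over all CpGs as an offset, none of the 6 was called higher than W465A (adjusted p from 0.456 to 0.994), and against WT the Asz1 and Stk31 calls were lost (0.144 and 0.0879).

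**Figure D5:**
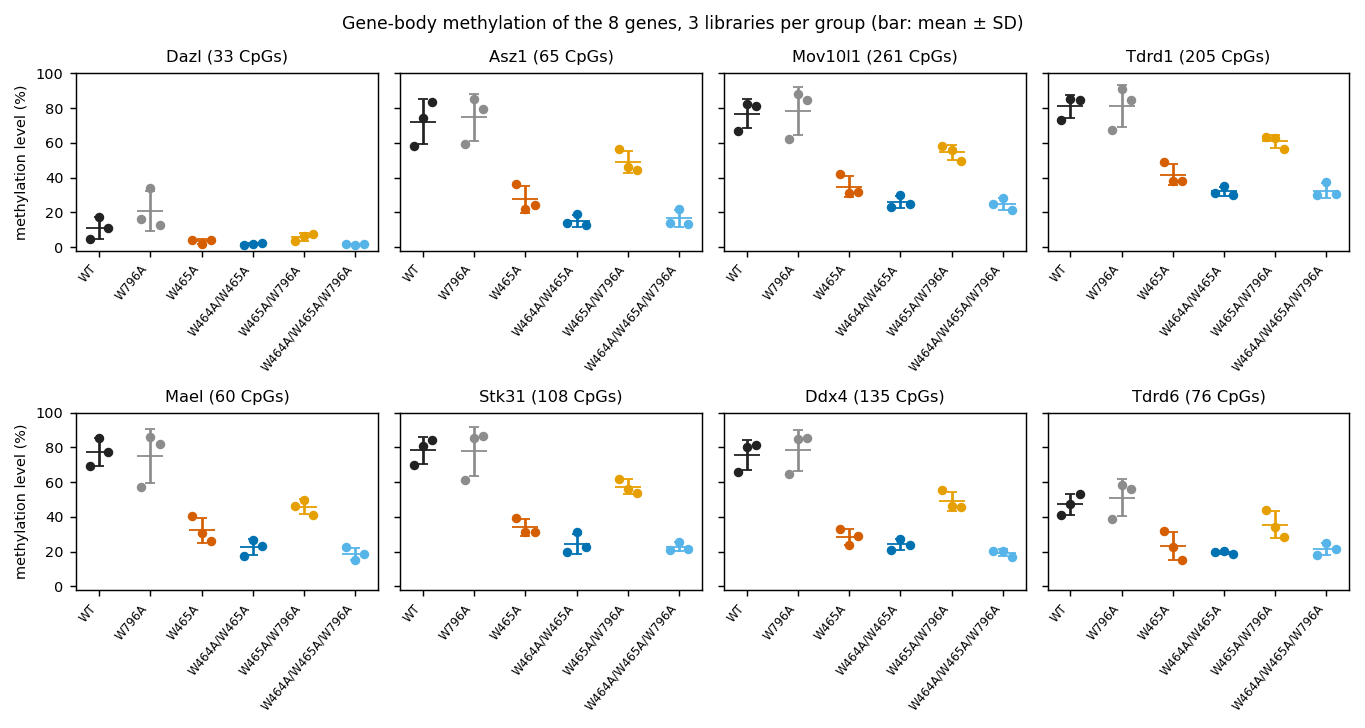
Methylation level of the gene body (percent of reads methylated, summed over covered CpGs in the gene more than 500 bp from the start) of the 8 genes in each library, by DNMT1 group; points are libraries and bars are group means ± SD. In WT, 6 bodies lay at 72.1% to 80.9%, Tdrd6 at 47.2% and Dazl at 10.9%.

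The bodies of Dazl and Tdrd6 departed from the rest. Dazl's body was at 4.46, 17.5 and 10.9% in WT and at 4.11, 1.83 and 3.83% in W465A, so its promoter was more methylated than its body in all 3 WT libraries. The 33 covered body CpGs of Dazl lie mostly just past the promoter window, 26 of them within 1000 bp of the start. The low body level of Dazl therefore stands mainly for this stretch. Over the alternatives other than left-out libraries, its difference from WT ran from -21.3 to -7.23 points in W465A. It ran from -41.5 to -7.41 points in W464A/W465A and from -50.3 to -7.18 points in W464A/W465A/W796A. In some of these alternatives the Dazl body was called lower. The body of Tdrd6 was at 44.7% ± 5.57 over the 63 covered CpGs of exons and at 70.2% ± 5.69 over the 13 of introns in WT. Of these 76 CpGs, 18 lie 500 to 1000 bp from the start, and whether distance from the start enters the exon level was not tested. Exons and introns of Tdrd1, by comparison, were at 75.9% ± 11.9 and 81.8% ± 5.93, and those of Stk31 at 76.8% ± 2.18 and 78.2% ± 8.35.

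Whether a promoter changed unlike the body of the same gene was tested with limma on the log2 odds of methylation, promoter minus body. Changes in either direction counted. No member passed in any of the 5 comparisons with WT, in which 0% of 16041 genes did in W796A and W465A/W796A, 22.2% in W465A, 40.3% in W464A/W465A/W796A and 41.4% in W464A/W465A. Most genes that passed had the promoter higher relative to the body. They numbered 3417 against 138 lower in W465A, 6397 against 248 in W464A/W465A and 6252 against 216 in W464A/W465A/W796A. Many promoters had little methylation to lose, with a WT median of 1.05% over all tested promoters. Dazl had the lowest value of the members in W465A, -1.66 (adjusted p = 0.0816), the promoter lower relative to the body, and Ddx4 and Stk31 had the highest, 1.32 and 1.12, beside 1.22 for the median gene. In W465A/W796A, Stk31, Ddx4 and Mov10l1 had the highest values of the members, 1.62, 1.60 and 1.59, beside 0.385 for the median gene. Each had an unadjusted p under 0.05 and an adjusted p of 0.485 to 0.519, and the Mov10l1 value rested on 3 promoter CpGs.

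Other genes of the pathway were taken from a list of 22, of which 21 had a tested promoter and 19 had at least 10 covered CpGs. In WT, 11 of the 19 were at 20% or more and 6 were under 5%. Fkbp6, a co-chaperone of piRNA loading, was at 73.9% ± 12.4 in WT and 18.8% in W465A, Gtsf1, a PIWI partner, at 69.8% ± 12.6 and 21.5%, Btbd18, a nuclear regulator of piRNA precursor transcription, at 68.2% ± 12.2 and 17.9%, and the PIWI gene Piwil2 at 53.1% ± 15.4 and 14.2%. The lowest were Mybl1, a transcription factor of piRNA precursor genes, at 0.244% and Exd1 at 0.564%. Of the 21, 12 were lower in W465A, 13 in W464A/W465A, 14 in W464A/W465A/W796A and 1 in W465A/W796A (Spocd1, with 4 covered CpGs, named after its value was seen); none was called in W796A. The shares of all promoters called lower were 22.3%, 23.8%, 23.9% and 4.3% in these 4 mutants. Of the 11 at 20% or more in WT, 10, 10, 11 and 0 were called, beside 97.0%, 98.7%, 98.95% and 19.1% of the 1049 methylated promoters.

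The mean of the 7 members with at least 10 covered promoter CpGs was compared with 13256 other promoters over the 18 libraries. The smallest root mean square differences were those of Scara5 (4.12 points), Adam32 (4.18 points), Dnah7c (4.22 points), Henmt1 (4.65 points) and CN725425 (4.70 points). Henmt1, which encodes the methyltransferase of piRNA ends, was at 35.5% in WT, 9.42% in W465A, 6.76% in W464A/W465A and 28.2% in W465A/W796A, over 55 covered CpGs. The other 4 had 11 to 19 covered CpGs and are not in the pathway list.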

How the data were processed

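Genomic DNA of 18 samples of rescued ES cells was cut with MspI, BfaI and MseI, treated with bisulfite and read in 150 bp pairs, per the labels' protocols. The submitters' processing notes name cutadapt 1.2.1, Bismark 0.18.1 and Bowtie 1.2 and the builds mm10 and GRCm38; removal of PCR duplicates is not given in the sources used here. The authors deposited, for 21867550 CpGs, the count of methylated reads and the count of all reads in each library, and these counts were used as deposited. Positions matched GRCm38: all 175 CpGs of the members' RefSeq promoter sequences fell on listed CpGs. Reads are not independent molecules, so depth covers counting error only.

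Counts were summed per gene region over the CpGs with at least 1 read in all 18 libraries. The principal transcript was the basic protein-coding transcript with the best APPRIS tag, then the best transcript support level, then the longest. Each gene was fitted with a quasi-binomial logistic model of group means over all 18 libraries, the overdispersion squeezed across genes by the method of limma's squeezeVar, with an F test and Benjamini-Hochberg adjustment over all genes tested. Calls required group means of library levels 10 or more points apart and, over all genes tested, an adjusted p below 0.05. Promoter and body were compared with limma 3.58.1 on log2((methylated + 0.5)/(unmethylated + 0.5)), and edgeR 4.0.16 served as an alternative, in R 4.3.3; the rest ran in Python 3.11.15. The models were tested on simulated data in which few promoters were changed, which makes the adjusted p stricter than where many are called. There the main test missed many changes of the sizes seen here. How many it misses in the comparisons with many calls was not simulated. A promoter that did not pass is not shown to be unchanged. In the simulated data, unchanged promoters had an unadjusted p under 0.05 somewhat more often than that threshold allows. Values in the text are means over the 3 libraries ± SD, differences are in percentage points, and n = 3 unless stated.

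The replicate numbers of the labels were checked by correlating same-numbered libraries' deviations from their group means over promoters. Of 15 pairs of groups, 1 (W465A and W465A/W796A) had every such correlation over 0.1 (0.117 to 0.439), a hint from the data and not from the labels. Named genes are the 8 members, 22 other pathway genes (of those with at least 10 covered CpGs, the 4 highest and 2 lowest in WT) and the 5 promoters most like the members' mean. The members and these lists were chosen with earlier results of these data known. Comparisons with WT share the WT libraries.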

Additional observations from a re-analysis of the deposited data

Results flagged for a closer look

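The body of Ddx4 had differences of opposite sign when W796A was added to different forms of DNMT1, of which 1 passed the test. All 3 W465A/W796A libraries (45.4% to 55.2%) lay above all 3 W465A libraries (23.8% to 32.8%), a difference of 20.4 points, whereas all 3 W464A/W465A/W796A libraries (17.2% to 20.6%) lay below all 3 W464A/W465A libraries (21.2% to 27.6%), a difference of -4.72 points. Only the first of these differences passed the test over all bodies (adjusted p = 0.0128; the other had an adjusted p of 1), and the difference between the 2 effects was not tested. In the other 7 members the W464A/W465A/W796A and W464A/W465A libraries overlapped. Of all bodies, 0.877% had a lower mean in W465A/W796A than in W465A. In W464A/W465A/W796A, 61.2% had a lower mean than in W464A/W465A, with a median difference of -0.488 points. How many of all bodies had libraries apart in both comparisons was not counted.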

How the results depend on the processing

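Of the 8 members, the number called changed with the following choices, and small changes are left out of the list. Among those, some choices gave all 8 against WT in W465A, in W464A/W465A and in W464A/W465A/W796A, at promoters and in bodies. The offset for each library's level tests only for change beyond that level, which itself differs between the groups. At promoters, 7 were called against WT in W465A, in W464A/W465A and in W464A/W465A/W796A; the number was 4 in each with at least 10 reads per CpG (5 members then tested) and with a minimum of 25 points, and with the offset for each library's level it was 1, 2 and 1. The 4 calls of W464A/W465A/W796A against W465A/W796A became 2 with at least 5 reads per CpG, with 250 bp on either side, with a minimum of 10 CpGs, without squeezing, with limma and with edgeR, and 0 with at least 10 reads or the offset. W465A/W796A against WT gave 1 call (Asz1) in place of 0 with 1000 bp on either side. In bodies, at least 10 reads left 3 members, of which 2 were called in W465A, in W464A/W465A and in W464A/W465A/W796A against WT, 0 in W465A/W796A against WT and 1 in W465A/W796A against W465A. W465A/W796A against WT (6 calls) gave 3 with at least 5 reads and 2 with a minimum of 25 points, and W465A/W796A against W465A (6 calls) gave 0 with that minimum and 0 with the offset. Members whose promoter changed unlike the body in W464A/W465A/W796A numbered 2 with at least 5 reads (of 6 tested) in place of 0. The main test called 40.3% of all genes there, and the share with at least 5 reads is not given, so this count does not set the members apart.

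Leaving out each library in turn gave 0 to 5 calls at promoters for W464A/W465A/W796A against W465A/W796A, 0 to 3 for W465A/W796A against W465A and against WT, 0 to 2 for the departure from additivity, 5 to 7 for W465A and 6 to 7 for the other 2 mutants against WT. In bodies it gave 0 to 7 for W465A/W796A against W465A and against WT. Over the same fits, 1.11% to 12.4% of all promoters were called for W464A/W465A/W796A against W465A/W796A. Of all bodies, 0% to 79.3% were called for W465A/W796A against W465A and 0% to 79.7% against WT. No direction of a call was reversed.

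With the replicate block in all 18 libraries, W465A/W796A against W465A gave 0 members at promoters and 5 in bodies (6 without it). In the libraries of these 2 groups alone, an alternative chosen after seeing the data, the replicate block gave 0 and 7, and the fit with no replicate block gave 2 and 5. In the other comparisons the block changed no number of called members; in W464A/W465A/W796A against W465A/W796A it exchanged Asz1 (adjusted p = 0.0522) for Tdrd1 (adjusted p = 0.0426).

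The share of all promoters called lower or higher also moved: over the alternatives other than left-out libraries it was 2.90% to 38.2% for W465A against WT, 0.122% to 11.99% for W465A/W796A against WT, 0.0182% to 2.07% for W465A/W796A against W465A and 0.0486% to 18.3% for W464A/W465A/W796A against W465A/W796A. For W464A/W465A and W464A/W465A/W796A against WT the share was 4.89% to 40.7% and 4.42% to 42.5%. Depth limits Mov10l1 (8 to 38 promoter reads per library) and Ddx4 (66 to 426) most.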
